A study of Mus musculus with 12 samples.

Results

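The Notch genes described here are 9 of the 19938 genes measured: the receptors Notch1, Notch2 and Notch3, the ligands Dll1, Jag1 and Jag2, and the target genes Hes1, Hey1 and Nrarp. They were chosen by name, each is read by 1 probe set that maps to no other gene, and all 9 lie above the 25th percentile of mean intensity. Expression was measured on 12 arrays, 1 for the early and 1 for the late biopsy of 1 colon tumor in each of 6 mice. All animals were F1 hybrids (SWR x C57BL/6) with the genotype Apc Min/+, a germline mutation that predisposes to intestinal tumors, and all had been given 2 courses of 4% dextran sodium sulfate, which injures the colon lining, in the drinking water around weaning. Mice were 86 to 117 days old at the early biopsy and 200 to 395 days old at the late one. The late biopsy was read as adenoma in mice 1755, 1803 and 1805 (234 to 395 days) and as intramucosal carcinoma in mice 2201, 3407 and 3413 (200 to 267 days), and each early biopsy was placed with the final reading of its tumor. Normal colon, untreated mice and mice without the Apc mutation are not among the groups compared, and each pathology holds 3 mice.

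Notch receptors sit in the membrane of one cell and bind Delta-like and Jagged ligands on its neighbour. Binding lets proteases release the intracellular part of the receptor, which joins the DNA-binding protein RBPJ in the nucleus and turns on genes such as Hes1, Hey1 and Nrarp. In the intestinal crypt the pathway keeps progenitors dividing and holds back Atoh1, the factor that starts the secretory lineages. In blood vessels the same receptors and ligands act between endothelial cells and the mural cells that wrap them, where Notch3 is best known.

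None of the 9 genes passed the threshold, an adjusted p of 0.05 in limma, in any of 6 comparisons. The values below are therefore levels and differences with their intervals, in log2 units, where a difference of 1 is a doubling of intensity. What stood out in size was Jag1, at a higher level in the late than in the early biopsy of all 3 adenoma tumors, and Notch3, higher in the late biopsy of the same tumors. All 3 adenoma pairs span both ranges of the submitters' sample numbers given below. Number range and time point cannot be told apart in them. Levels on an array depend on the probes, so each gene is compared only with itself.

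Regions before the transcription start were available in RefSeq (GRCm38.p6) for 7 of the 9 genes, in 8 windows of 250 bases. Hes1 and Hey1 had no window, so Nrarp is the only target gene among them. The regions of Jag1, Notch3 and Nrarp are shown because in the adenoma tumors the early and late values of these 3 genes did not overlap. Each runs 5′ to 3′ on the gene's strand and ends at the base before the start, with capitals for any match, on either strand, to TGGGAA (the core bound by RBPJ), CACNAG (the N box of HES proteins) or CACGTG (the E box of HES and HEY proteins).
Jag1 (chr2:137116521-137116770, minus strand): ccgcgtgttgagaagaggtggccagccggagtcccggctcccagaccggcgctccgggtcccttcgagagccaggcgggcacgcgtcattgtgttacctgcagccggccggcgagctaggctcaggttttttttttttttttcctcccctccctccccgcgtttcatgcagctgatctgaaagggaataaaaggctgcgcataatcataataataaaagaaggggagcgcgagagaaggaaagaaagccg
Notch3 (chr17:32166891-32167140, minus strand): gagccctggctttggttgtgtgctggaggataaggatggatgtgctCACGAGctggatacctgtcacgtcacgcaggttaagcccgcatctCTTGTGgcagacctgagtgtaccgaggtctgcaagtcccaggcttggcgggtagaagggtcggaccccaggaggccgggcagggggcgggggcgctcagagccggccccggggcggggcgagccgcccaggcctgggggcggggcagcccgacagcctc
Nrarp (chr2:25180508-25180757, plus strand): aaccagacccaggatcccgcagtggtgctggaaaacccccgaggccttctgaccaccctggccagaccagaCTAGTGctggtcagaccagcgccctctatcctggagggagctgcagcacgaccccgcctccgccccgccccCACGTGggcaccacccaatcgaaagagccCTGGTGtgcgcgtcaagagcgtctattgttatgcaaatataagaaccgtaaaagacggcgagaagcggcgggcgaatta

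TGGGAA was in 0 of the 8 windows, which leave out Hes1 and Hey1, and in 21.6% of 32851 RefSeq windows of this length. An N box was in 4 of the 8 windows and in 36.7% of all, and an E box in 1 of the 8 and in 6.02% of all. Notch3 had N box letters 204 and 159 bases before its start, and Nrarp had them 179 and 79 bases before its own. Nrarp also held the E box, 108 bases before the start, and Jag1 held none of the 3 motifs. A match shows the letters only, and none of these arrays measured binding.

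**Figure D1:**
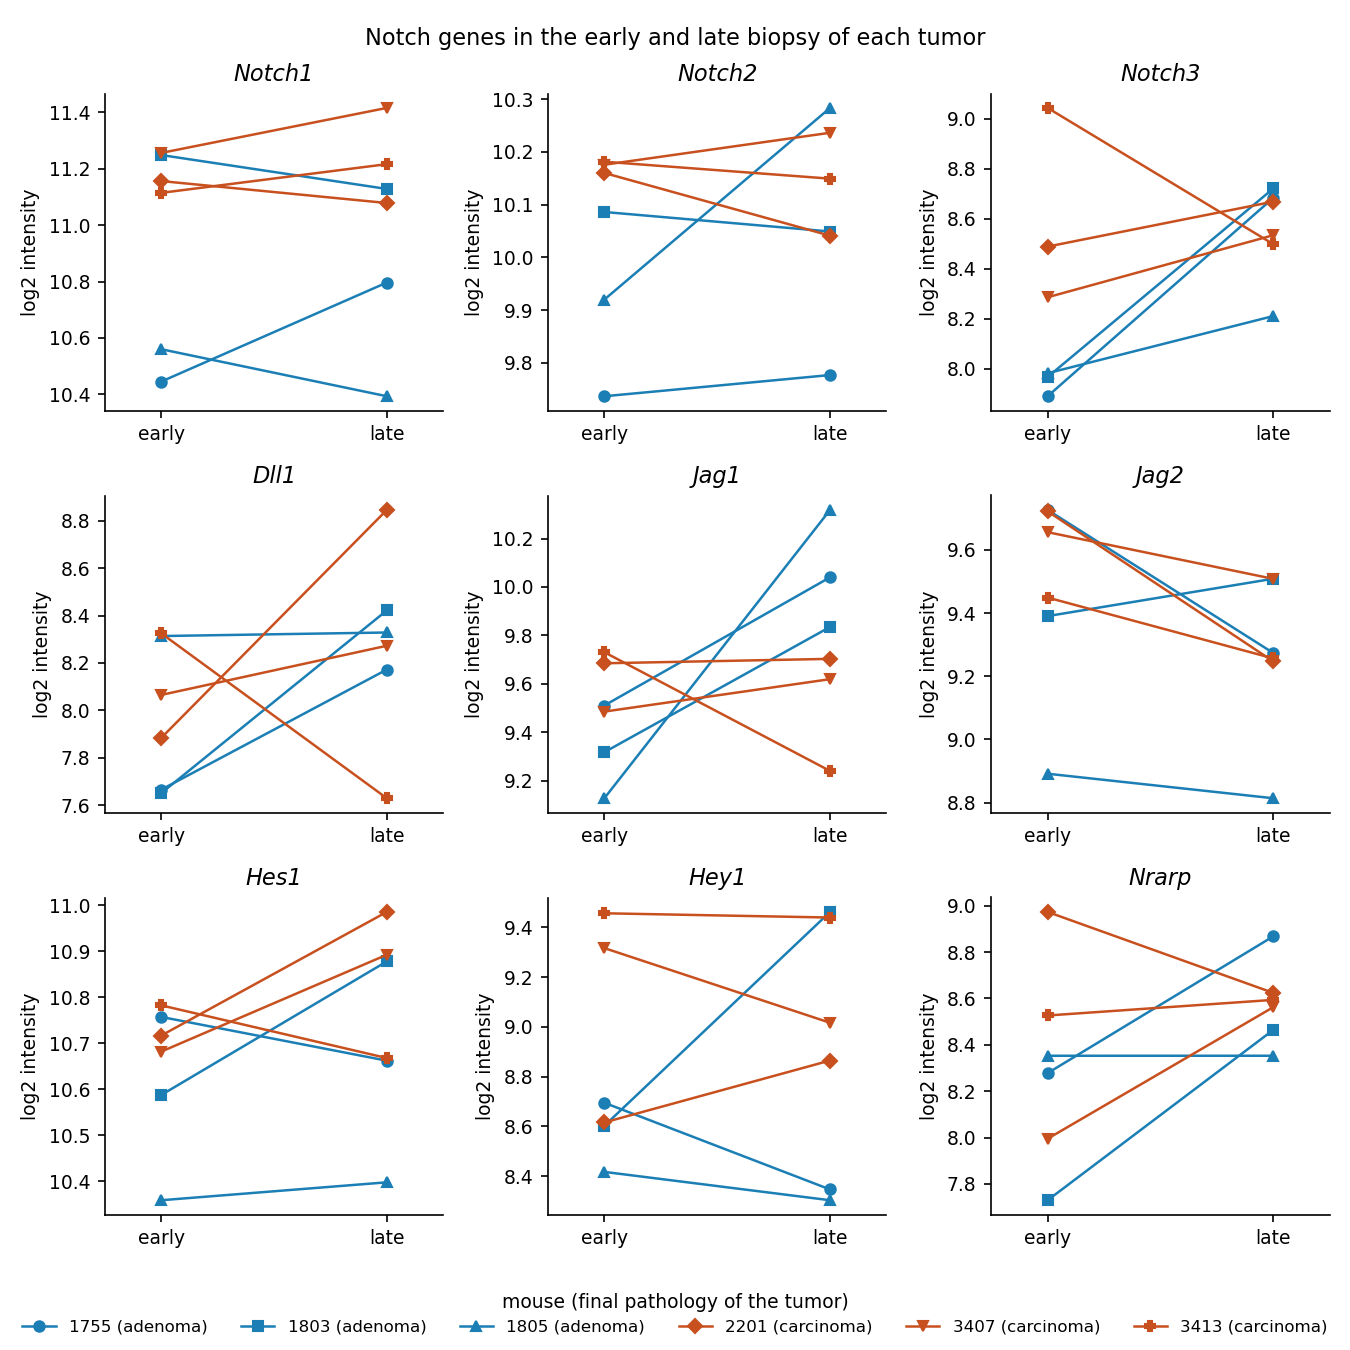
Intensity (log2, vertical axes with separate ranges) of the 9 Notch genes in the early and late biopsy of each tumor; 1 line joins the biopsies of 1 mouse, blue for adenoma and orange for carcinoma. The late point of Jag1 is above the early one in all 3 blue lines, by 0.52 to 1.19, and that of mouse 3413 is below the early one in Notch3, Dll1 and Jag1.

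The receptors were measured first. Notch1, the receptor that crypt progenitors and endothelial cells use, ran from 10.44 to 11.26 with a median of 11.14 in the early biopsies, and from 10.39 to 11.42 with a median of 11.10 in the late ones. Mice 1755 and 1805 were the low animals at both times, and the early and late ranges overlapped almost in full. The late minus early difference was 0.04 (SE 0.0782, 95% interval -0.14 to 0.22), with 3 of 6 mice higher. By group the order was late carcinoma at 11.24 ± 0.17, early carcinoma at 11.18 ± 0.073, late adenoma at 10.77 ± 0.37 and early adenoma at 10.75 ± 0.43 (SD, n = 3 each). Only the step from early carcinoma to late adenoma exceeded the larger SD of the neighbours.

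Notch2, a receptor of crypt progenitors alongside Notch1, was the steadiest of the 3 receptors, at 9.74 to 10.18 early (median 10.12) and 9.78 to 10.28 late (median 10.10). Its late minus early difference was 0.05 (SE 0.0698, 95% interval -0.12 to 0.21), with 3 of 6 mice higher. Mouse 1805 differed between its biopsies by 0.36 and the other mice by -0.12 to 0.06. The order was early carcinoma (10.17 ± 0.011), late carcinoma (10.14 ± 0.098), late adenoma (10.04 ± 0.25) and early adenoma (9.91 ± 0.17; SD, n = 3 each), and no neighbours differed beyond their spread.

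Notch3, the receptor of pericytes and vascular smooth muscle, was at 7.89, 7.97 and 7.98 in the early biopsies of the adenoma tumors of mice 1755, 1803 and 1805, and at 8.68, 8.72 and 8.21 in their late biopsies. All late values lay above all early ones in these tumors. The difference was 0.59 (SE 0.182, 95% interval 0.16 to 1.03; limma, adjusted p = 0.179), a 1.51-fold higher level. In the carcinoma tumors of mice 2201, 3407 and 3413 the early values were 8.49, 8.29 and 9.04 and the late values 8.67, 8.53 and 8.50. These overlapped, with late minus early values of 0.18, 0.25 and -0.55, and the difference was -0.04 (SE 0.182, 95% interval -0.47 to 0.40). Early adenoma, at 7.95 ± 0.049, was the lowest of the 4 groups and lay beyond the spread from the next, while early carcinoma (8.61 ± 0.39), late carcinoma (8.57 ± 0.090) and late adenoma (8.54 ± 0.29; SD, n = 3 each) did not differ beyond theirs.

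Among the ligands, Jag1, which is made by crypt and vascular cells, showed the largest difference of the 9 genes in the adenoma tumors. Its early values were 9.51, 9.32 and 9.13 in mice 1755, 1803 and 1805, and its late values 10.04, 9.84 and 10.32. The 3 late values were all above the 3 early ones, and mouse 1805 moved from the lowest to the highest of the adenoma biopsies. The difference was 0.75 (SE 0.173, 95% interval 0.33 to 1.16; limma, adjusted p = 0.119), a 1.68-fold higher level. In the carcinoma tumors Jag1 was at 9.69, 9.49 and 9.73 early and at 9.70, 9.62 and 9.24 late in mice 2201, 3407 and 3413. These overlapped, with changes of 0.02, 0.13 and -0.49 and a mean of -0.11 (SE 0.173, 95% interval -0.53 to 0.30). Late adenoma (10.06 ± 0.24) stood above early carcinoma (9.63 ± 0.13) by more than the spread, and early carcinoma, late carcinoma (9.52 ± 0.25) and early adenoma (9.32 ± 0.19; SD, n = 3 each) followed without a step beyond it.

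Jag2, the second Jagged ligand, was the one gene with a lower mean in the late biopsies. It was at 8.89 to 9.73 early (median 9.55) and at 8.81 to 9.51 late (median 9.27). Mouse 1805 was the lowest at both times, and the ranges overlapped. The difference was -0.20 (SE 0.0863, 95% interval -0.41 to -0.0036; limma, adjusted p = 0.331), with 5 of 6 mice lower, mouse 1803 being 0.12 higher. The group order was early carcinoma (9.61 ± 0.14), late carcinoma (9.34 ± 0.15), early adenoma (9.34 ± 0.42) and late adenoma (9.20 ± 0.35; SD, n = 3 each), with a step beyond the spread between the carcinoma groups alone.

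Dll1, a Delta-like ligand carried by early secretory cells, had changes from -0.70 in mouse 3413 to 0.96 in mouse 2201. It was at 7.65 to 8.33 early (median 7.97) and 7.63 to 8.85 late (median 8.30), and 5 of 6 mice were higher late, mouse 1805 by 0.01. Both extremes came from carcinoma tumors. The difference over all tumors was 0.29 (SE 0.203, 95% interval -0.18 to 0.77), with 0.16 without mouse 2201 and 0.49 without mouse 3413. The groups ran from late adenoma (8.31 ± 0.13) through late carcinoma (8.25 ± 0.61) and early carcinoma (8.09 ± 0.22) to early adenoma (7.88 ± 0.38; SD, n = 3 each) with no step beyond the spread.

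The target genes showed small or uneven differences. Hes1, the repressor of Atoh1 in the crypt, was at 10.36 to 10.78 early (median 10.70) and 10.40 to 10.99 late (median 10.77), with mouse 1805 the lowest at both times. The difference was 0.10 (SE 0.0735, 95% interval -0.07 to 0.27), with 4 of 6 mice higher. The interval holds changes of up to 0.27 upward and 0.07 downward. The order was late carcinoma (10.85 ± 0.16), early carcinoma (10.73 ± 0.051), late adenoma (10.65 ± 0.24) and early adenoma (10.57 ± 0.20; SD, n = 3 each), without a step beyond the spread.

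Hey1, a related repressor that is prominent in endothelial cells, was at 8.42 to 9.46 early (median 8.66) and 8.30 to 9.46 late (median 8.94). The carcinoma mice 3407 and 3413 were the 2 highest early arrays, at 9.32 and 9.46. Mouse 1803 was 0.86 higher late, and the other mice differed by -0.35 to 0.25. The difference was 0.05 (SE 0.155, 95% interval -0.31 to 0.42), with 2 of 6 mice higher. Early carcinoma (9.13 ± 0.45), late carcinoma (9.11 ± 0.30), late adenoma (8.70 ± 0.66) and early adenoma (8.57 ± 0.14; SD, n = 3 each) followed without a step beyond the spread.

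Nrarp, a target that in turn dampens Notch signalling, was at 8.28, 7.73 and 8.35 in the early and at 8.87, 8.46 and 8.35 in the late adenoma biopsies of mice 1755, 1803 and 1805. The change was 0.00 in mouse 1805, so the early and late values were separate by less than the rounding shown. The adenoma difference was 0.44 (SE 0.201, 95% interval -0.04 to 0.92; limma, adjusted p = 0.311). In the carcinoma tumors it was at 8.97, 7.99 and 8.53 early and at 8.62, 8.56 and 8.59 late in mice 2201, 3407 and 3413. The late carcinoma values drew together to an SD of 0.031 from 0.49 early, and the difference was 0.10 (SE 0.201, 95% interval -0.38 to 0.57). Late carcinoma (8.59 ± 0.031), late adenoma (8.56 ± 0.27), early carcinoma (8.50 ± 0.49) and early adenoma (8.12 ± 0.34; SD, n = 3 each) followed without a step beyond the spread.

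Over all 6 tumors, 8 of the 9 genes had a higher mean late and 1 a lower one, with a median difference of 0.10 against -0.02 over all genes. limma called 0 of the 9, where it called 0% of all 19938 genes. At an unadjusted p under 0.05 there was 1 of the 9, Jag2, against 2940 of all genes (14.7%, with 9.06% lower like Jag2), and limma with an intensity trend and robust variances also called 0 genes (2899 at an unadjusted p under 0.05). Jag2 was no longer among them with that setting, after quantile normalisation or without the replicate block, which leaves 0 of the 9 there. No Notch gene moved the same way in 6 of 6 mice, which 7.77% of all genes did, and the early and late ranges overlapped for all 9, as they did for all but 0.401% of genes.

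In the adenoma tumors 8 of 9 genes were higher late (Notch1, at 0.02, turns to -0.02 when each array is centred on its median), with a median of 0.13 against -0.01 over all genes, and 0 of the 9 passed, where 0.125% of all genes did. At an unadjusted p under 0.05 there were 2 of the 9, Jag1 and Notch3, against 18.0% of all genes, with 7.38% higher. Notch3 was no longer among them without mouse 1755 or mouse 1803, where its difference was 0.49 and 0.51. The early and late values did not overlap for 3 of the 9, Jag1, Notch3 and Nrarp, against 15.3% of all genes, and 7.42% in the higher direction. Dll1 joined these 3 among the genes higher in every adenoma mouse, so 4 of 9 moved one way, against 39.4% of all genes, with 17.0% higher. Nrarp is in both counts, and Dll1 in the second, through tiny changes in mouse 1805, 7e-05 for Nrarp and 0.01 for Dll1. In the carcinoma tumors 4 of 9 were higher and 5 lower, with a median of -0.02 against -0.03 over all genes. Of these 0 passed (0% of all genes), and 0 had an unadjusted p under 0.05 in limma or in its trend setting, against 858 genes, 4.30% of all. Jag2 alone moved one way in all 3 carcinoma mice, lower by 0.15 to 0.47, with a difference of -0.27 (SE 0.125, 95% interval -0.57 to 0.03); 26.6% of all genes moved one way in these 3 mice, 16.9% lower. The early and late carcinoma values overlapped for all 9 genes and were separate for 7.95% of all genes.

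**Figure D2:**
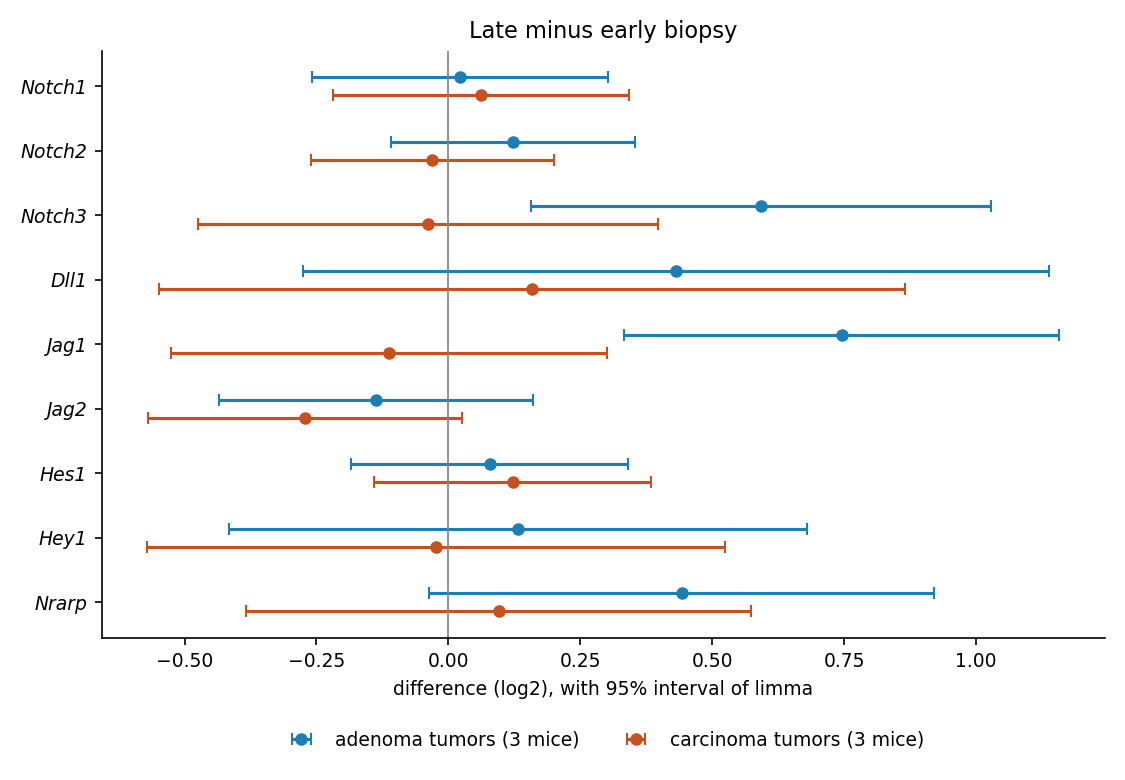
Late minus early difference (log2, horizontal axis) of each Notch gene in adenoma tumors (blue) and carcinoma tumors (orange), 3 mice each; points are limma estimates and bars 95% intervals not adjusted for the number of genes. The adenoma intervals of Notch3 (0.16 to 1.03) and Jag1 (0.33 to 1.16) lie above 0, and all 9 carcinoma intervals include it.

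The difference between the changes was tested itself. The late minus early value of Jag1 was smaller in the carcinoma than in the adenoma tumors (-0.86, SE 0.244, 95% interval -1.44 to -0.27; limma, adjusted p = 0.621), and every carcinoma change (-0.49 to 0.13) lay below every adenoma change (0.52 to 1.19). It was the 1 gene of the 9 whose changes did not overlap, against 13.1% of all genes, 6.67% with the carcinoma changes lower. Notch3 differed by -0.63 (SE 0.258, 95% interval -1.25 to -0.02; limma, adjusted p = 0.708), with overlapping changes, and by -0.38 without mouse 3413. Of the 9 genes 0 passed (0% of all genes in limma), and 2, Jag1 and Notch3, had an unadjusted p under 0.05, against 1404 of all genes, 7.04%, with 3.37% lower. Notch3 was no longer among them with genes below the 25th percentile left out, or without mouse 1755, 1803 or 3413. The late biopsies were taken at 234 to 395 days in adenoma and at 200 to 267 days in carcinoma tumors. All adenoma pairs span the ranges of sample numbers given below, and of the carcinoma pairs only that of mouse 2201 does. The part of time between biopsies and of sample number in the difference between pathologies was not tested.

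The biopsies hold several cell types, and a higher level in such bulk samples cannot tell more cells of a type from more RNA per cell. All 8 epithelial markers were measured, with a mean of 12.09 to 12.85 on the early and 12.17 to 12.86 on the late arrays. The intestinal factor Cdx2 itself ran from 7.75 to 11.57 over the arrays. The 12 endothelial markers were all measured at a mean of 8.39 to 9.89 early and 9.61 to 9.95 late, and their lowest value on any array was 7.37, for Kdr. The 9 mural cell markers had a mean of 8.82 to 10.46 early and 9.78 to 10.23 late, the 8 fibroblast markers 8.79 to 10.86 and 10.09 to 10.73, and the 8 leukocyte markers 8.02 to 9.24 and 8.89 to 9.54.

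The mean change of the mural cell markers in mice 1755, 1803, 1805, 2201, 3407 and 3413 was 0.96, 1.41, 0.22, 0.88, 0.19 and -0.64. That of Notch3 in the same mice was 0.79, 0.75, 0.23, 0.18, 0.25 and -0.55. Both were highest in mice 1755 and 1803 and below 0 in mouse 3413 alone, while mouse 2201 was high for the markers and not for Notch3. The fibroblast markers moved alike, with mean values of 0.96, 1.94, 0.20, 1.02, 0.40 and -0.55, and 8 of 8 were higher late in the adenoma tumors (median 0.92). Endothelial markers differed by 1.16, 1.39 and 1.04 in the adenoma mice and by 1.06, 0.03 and -0.08 in the carcinoma mice, where Jag1 differed by 0.53, 0.52 and 1.19 and by 0.02, 0.13 and -0.49. All 12 endothelial and all 9 mural cell markers had a higher mean late in the adenoma tumors, 1 of the first and 0 of the second passing in limma. Leukocyte markers were higher late in the adenoma tumors for 7 of 8 genes (median 0.19). The adenoma pairs and that of carcinoma mouse 2201 span the ranges of sample numbers given below. The part of these cells in the Notch3 and Jag1 values was not tested.

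**Figure D3:**
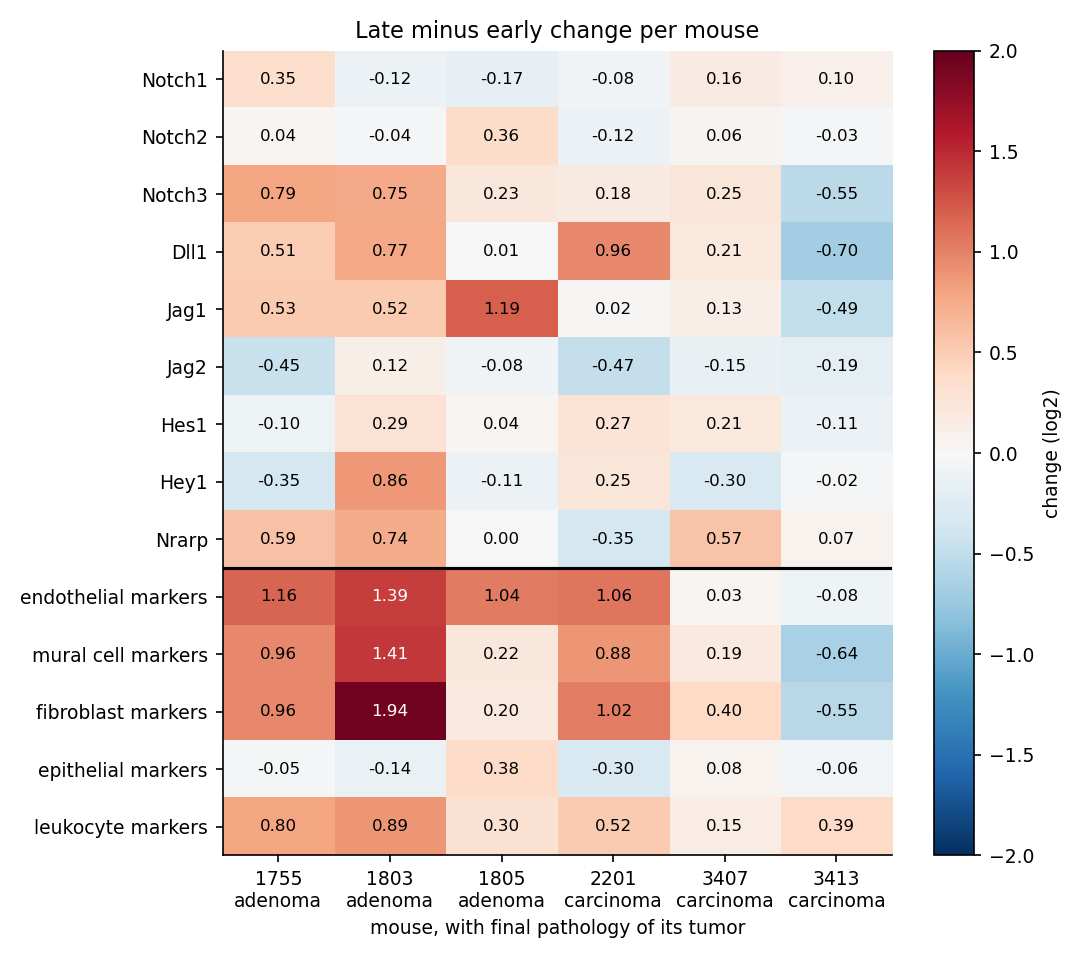
Late minus early change (log2, colour and number) of the 9 Notch genes and, below the black line, of the mean of 5 lists of cell type markers, in each of the 6 mice. Mouse 3413 has the lowest value of Notch3 (-0.55), Dll1 (-0.70), Jag1 (-0.49) and of the mural cell (-0.64) and fibroblast (-0.55) lists.

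The submitters' sample numbers also separate the arrays. The early arrays of mice 1755, 1803, 1805 and 2201 carry the numbers 155 to 255 and the other 8 arrays 319 to 379. The labels do not say what the numbers stand for. In the 4 pairs that span both ranges the mean change was 0.49 ± 0.33 for Notch3, 0.56 ± 0.41 for Dll1 and 0.56 ± 0.48 for Jag1 (SD). In the 2 pairs inside the higher range, those of mice 3407 and 3413, it was -0.15 ± 0.56, -0.24 ± 0.64 and -0.18 ± 0.44. For Hey1 these means were 0.16 ± 0.53 and -0.16 ± 0.20. With a term for the range in the fit over all tumors, Notch3, Dll1, Jag1 and Hey1 turn to these second values. For the other 5 genes the means of both sets of pairs were Notch1 at 0.00 and 0.13, Notch2 at 0.06 and 0.01, Jag2 at -0.22 and -0.17, Hes1 at 0.13 and 0.05 and Nrarp at 0.24 and 0.32. The mean of the endothelial markers changed by 1.04 to 1.39 in the 4 spanning pairs and by 0.03 and -0.08 in the 2 others. For the mural cell markers it was 0.22 to 1.41 against 0.19 and -0.64, and for the fibroblast markers 0.20 to 1.94 against 0.40 and -0.55. All 3 adenoma pairs span the ranges. For the change in adenoma tumors, of Notch genes and markers alike, the number range and the time point therefore cannot be told apart.

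Carcinoma and adenoma tumors were then compared at each time point. In the early biopsies all 9 genes had a higher mean in the tumors later read as carcinoma, with a median of 0.31 against 0.04 over all genes. None of the 9 passed in limma (0% of all genes did), 1, Notch3, had an unadjusted p under 0.05 (2384 of all genes, 12.0%, with 7.06% higher), and the trend setting also called 0 genes (2324 at an unadjusted p under 0.05). Notch3 was at 8.29 to 9.04 in carcinoma and 7.89 to 7.98 in adenoma tumors, a difference of 0.66 (SE 0.198, 95% interval 0.22 to 1.10; limma, adjusted p = 0.292), and all carcinoma values were the higher ones. Notch2, at 10.16 to 10.18 against 9.74 to 10.09, was the other gene without overlap, with a difference of 0.26 (SE 0.125, 95% interval -0.02 to 0.54; limma, adjusted p = 0.449). Groups were separate for 18.1% of all genes, and for 10.7% with carcinoma higher. Hey1 was 0.56 higher (SE 0.310) with overlap, since mouse 2201, at 8.62, lay within the adenoma range of 8.42 to 8.69. Beside these values the endothelial markers were higher in the early carcinoma tumors for 12 of 12 genes, the mural cell markers for 8 of 9, the fibroblast markers for 8 of 8 (median 0.70) and the leukocyte markers for 7 of 8 (median 0.48), while 7 of 8 epithelial markers were lower. Their part in the Notch values was not tested. All 3 early adenoma arrays have the lowest sample numbers, 155 to 157, against 255, 325 and 336 for the early carcinoma arrays. Pathology and sample number therefore cannot be told apart at this time point.

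In the late biopsies, all of which carry the higher sample numbers, 7 genes were higher and 2 lower in carcinoma, though Notch3 and Nrarp, both at 0.03, turn to -0.02 when each array is centred on its median and to -0.03 after quantile normalisation, with a median of 0.11 against 0.02 over all genes. None of the 9 passed in limma (0% of all genes did), and 2, Jag1 and Notch1, had an unadjusted p under 0.05 (2341 of all genes, 11.7%; 2240 in the trend setting, which also called 0). Jag1 was at 9.70, 9.62 and 9.24 in carcinoma and at 10.04, 9.84 and 10.32 in adenoma, a difference of -0.54 (SE 0.175, 95% interval -0.93 to -0.16; limma, adjusted p = 0.401). All 3 carcinoma values lay below all 3 adenoma values, the 1 such gene of the 9, against 14.9% of all genes, 6.12% with carcinoma lower. Notch1 was at 11.08, 11.42 and 11.22 in carcinoma and at 10.80, 11.13 and 10.39 in adenoma, a difference of 0.46 (SE 0.206, 95% interval 0.01 to 0.92; limma, adjusted p = 0.424). Mouse 1803 of the adenoma group reached the carcinoma range of Notch1. Notch1 was no longer under an unadjusted p of 0.05 with arrays centred on their medians, after quantile normalisation or without the replicate block, and its difference was 0.27 without mouse 1805. Endothelial markers differed little at this time point, with a median of -0.06 over 12 genes, and mural cell markers had a median of -0.14 over 9. Fibroblast markers had a median of -0.01 over 8, and leukocyte markers were higher in carcinoma for 5 of 8 (median 0.16). Epithelial markers were lower in carcinoma for 8 of 8 (median -0.19, the lowest at -1.81). Of these, 4 had an unadjusted p under 0.05 in limma, 50% against 11.7% of all genes. The part of these cells in the Notch values was not tested. Late adenoma mice were older, at 333 ± 86.4 days against 227 ± 35.2 days (SD, n = 3 each).

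**Figure D4:**
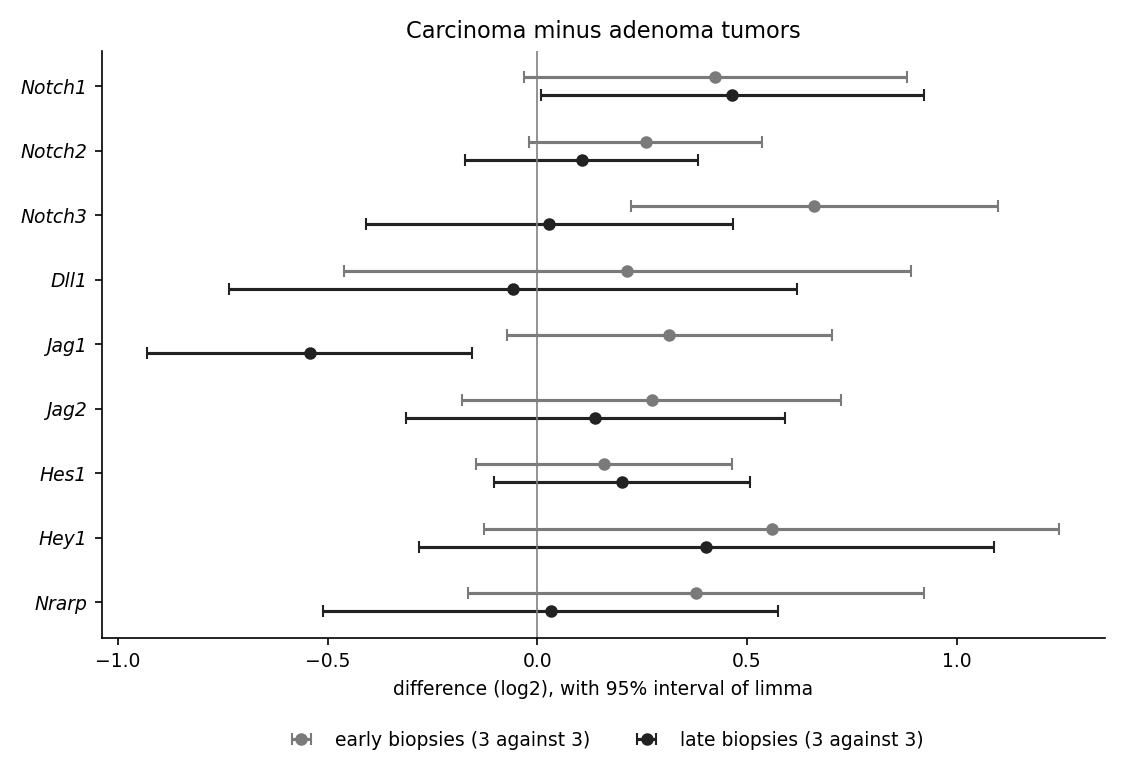
Carcinoma minus adenoma difference (log2, horizontal axis) of each Notch gene in early (grey) and late (black) biopsies, 3 mice against 3; points are limma estimates and bars 95% intervals not adjusted for the number of genes. All 9 early estimates are above 0, and Jag1 changes side from 0.31 early to -0.54 late.

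Of 64 further genes of the pathway, in 6 lists, 62 were measured, and 0 passed in any of the 6 comparisons in limma. Over all tumors 28 were higher and 34 lower late, with a median of -0.01 against -0.02 over all genes, and 4 higher and 7 lower ones had an unadjusted p under 0.05. These are 17.7% of the 62, against 14.7% of all genes. In the adenoma tumors 8 higher and 8 lower ones did, 25.8% against 18.0%. In the carcinoma tumors 2 and 1 did, 4.84% against 4.30%.

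Among the other receptors and ligands, 2 of 6 were higher late over all tumors. Notch4, the endothelial receptor, was at 8.81, 8.40 and 8.72 in the early and at 9.67, 9.04 and 10.09 in the late adenoma biopsies of mice 1755, 1803 and 1805. The groups did not overlap, and the difference was 0.95 (SE 0.145; limma, adjusted p = 0.0707). In the carcinoma mice it differed by 0.15, -0.08 and -0.18, and the changes differed by -0.99 between the pathologies (SE 0.205; limma, adjusted p = 0.561). Dll4, the endothelial Delta-like ligand, was 0.19 higher over all tumors (SE 0.0924), in 5 of 6 mice. Of the 8 other Hes and Hey factors, 2 were higher late over all tumors, Heyl and Hey2, and 6 were lower. At an unadjusted p under 0.05 in limma there was 1 of the 8 (12.5%), a lower one, against 14.7% of all genes, with 9.06% lower. Heyl, a target in mural cells whose name and that of Hey2 were picked after their values were seen, was 0.44 higher in the adenoma tumors (SE 0.159) and -0.19 different in the carcinoma tumors (SE 0.159), and Hey2 was at 0.51 and -0.23 (SE 0.201 for both). In carcinoma mice 2201, 3407 and 3413 Heyl changed by 0.19, -0.11 and -0.67 and Hey2 by 0.36, -0.27 and -0.77. Hey2 was dim, at 5.92 to 6.80 early and 6.03 to 6.71 late, where the array medians were 7.62 to 7.80. These 2 genes had no adjusted p under 0.223 in limma.

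Of the 17 measured genes that process ligands and receptors, 5 were higher and 12 lower late. Mfng, a glycosyltransferase that modifies Notch receptors, was 0.28 higher (SE 0.10) and Ncstn, a subunit of the gamma-secretase that cuts them, -0.17 different (SE 0.0630), each in 5 of 6 mice. Of the 13 measured members of the nuclear complex, 5 were higher and 8 lower. Rbpj itself was 0.15 higher (SE 0.0625) in 5 of 6 mice, and the acetyltransferase Kat2b (-0.24, SE 0.0871) and the deacetylase Hdac1 (-0.20, SE 0.0686) were lower in 6 of 6. Of the 10 genes grouped here as negative regulators, 8 were higher and 2 lower. The grouping is by name and includes Dtx1, Dtx2, Dtx3, Dtx3l and Dtx4. Whether any of the 10 dampens or aids Notch in these tumors was not measured. Dtx4, a Deltex ubiquitin ligase, was at 9.48 to 10.25 early (median 9.97) and 9.65 to 10.55 late (median 10.34), 0.34 higher (SE 0.0634; limma, adjusted p = 0.206) in 6 of 6 mice, by 0.14 to 0.52, in the 4 pairs that span the number ranges and in the 2 pairs inside the higher one. Bend6, a corepressor of Notch targets, was 0.42 higher (SE 0.137) in 5 of 6. It changed by 0.48 to 0.94 in the 4 pairs that span the number ranges. In mice 3407 and 3413, the 2 pairs inside the higher range, Bend6 changed by 0.15 and -0.19. There Mfng changed by 0.17 and -0.03, Rbpj by 0.10 and -0.05 and Ncstn by -0.18 and 0.02. In the same 2 mice Kat2b changed by -0.31 and -0.10 and Hdac1 by -0.02 and -0.04.

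The last list held 8 genes of the secretory lineages, which Notch activity holds back in normal crypts. Late against early, 6 were higher and 2 lower over all tumors, with a median of 0.15. Clca1, a goblet cell product, was at 8.24 to 13.76 early (median 12.06) and 6.57 to 11.76 late (median 9.97), -2.47 different (SE 0.934), lower in 5 of 6 mice and 2.47 higher in mouse 2201. Atoh1 was 0.49 higher (SE 0.389), with changes from -1.52 to 1.47. Between the pathologies 7 of 8 were lower in carcinoma at each time point, with a median of -1.05 early and -0.93 late against 0.04 and 0.02 over all genes. The epithelial markers were also lower in carcinoma, for 7 of 8 early (median -0.20) and 8 of 8 late (median -0.19, the lowest at -1.81). Of these 1 and 4 had an unadjusted p under 0.05 and 0 passed in limma, and their part in the secretory values was not tested. Tff3, the goblet cell trefoil peptide picked after its values were seen, was at 10.46, 10.92 and 10.72 in early carcinoma and 12.75, 12.13 and 13.49 in early adenoma. It was at 11.69, 11.86 and 10.60 in late carcinoma and 12.83, 12.26 and 12.90 in late adenoma, so the groups did not overlap at either time. The differences were -2.09 (SE 0.373; limma, adjusted p = 0.148) and -1.28 (SE 0.373; limma, adjusted p = 0.401). Muc2, the main goblet cell mucin and picked in the same way, differed by -1.07 and -1.36 (SE 0.317 for both), also without overlap. Hes1, the Notch target that represses Atoh1, was 0.16 higher in carcinoma early (SE 0.138) and 0.20 higher late (SE 0.138), with overlap at both times.

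**Figure D5:**
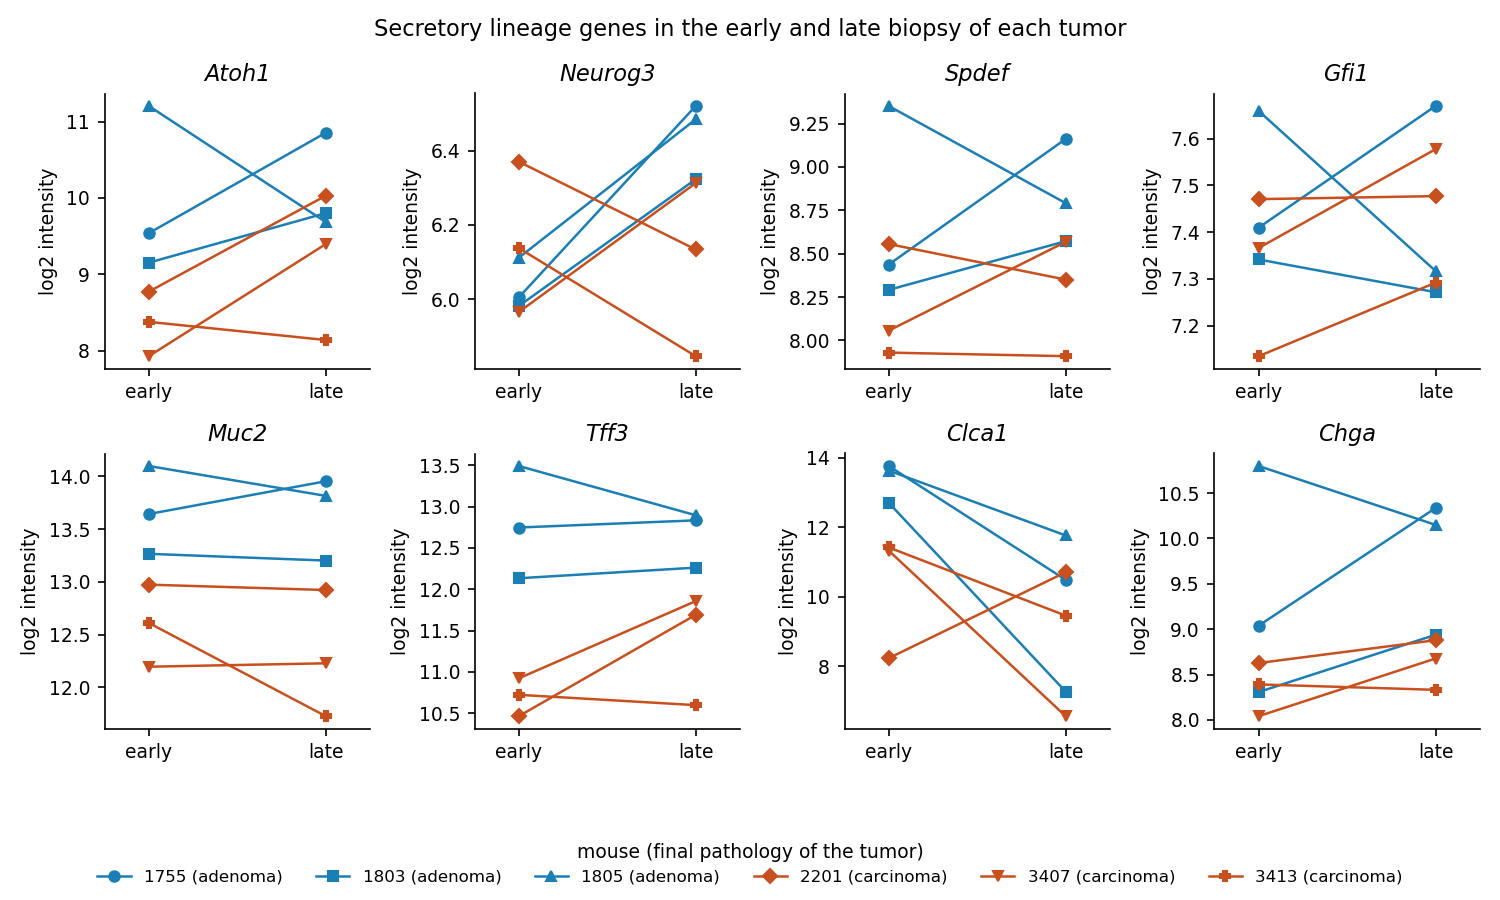
Intensity (log2, vertical axes with separate ranges) of the 8 secretory lineage genes in the early and late biopsy of each tumor, 1 line per mouse, blue for adenoma and orange for carcinoma. The 3 orange lines of Muc2 and Tff3 lie below the 3 blue ones at both time points, with Tff3 differing by -2.09 early and -1.28 late.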

How the data were processed

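The authors deposited a value table of 35557 probe sets for 12 arrays, read here as log2 intensities from its range (2.56 to 14.8) and its array medians (7.62 to 7.80), since the labels give no unit. No source used here states how the authors summarised and normalised them; scanner files were not used. Per the labels' protocols, biopsies were kept in RLT buffer or RNALater, and 300 ng of total RNA entered Ambion's labeling kit. Of the probe sets, 21789 carry 1 gene symbol, and the one with the highest mean was kept per gene (19938 genes).

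Differences were tested with limma 3.58.1 in R 4.3.3 (lmFit, eBayes, 2-sided, Benjamini-Hochberg over all genes, threshold 0.05), on simulated data first. Late against early used mouse as a fixed block, and carcinoma against adenoma used mouse as a random block (duplicateCorrelation, consensus 0.286) over 4 groups. The pairing comes from the animal. After removal of time point means the 2 arrays of a mouse correlated at 0.110 to 0.527. The early array of mouse 2201, at 0.110, was closest to the late array of mouse 3407, and each other early array to its own late partner. SE and 95% intervals are limma's, ± is the SD over mice, and the number of arrays limits the precision. All members were named; of each pathway list up to 4 genes with the smallest p in late against early could be named, plus others marked as picked after their values were seen. Members, lists and tests were chosen with earlier results of these data known.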

Additional observations from a re-analysis of the deposited data

Results flagged for a closer look

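Of 27 sets of 6 values (early, late and change for each of the 9 genes), 1 had a value far from the others. The late minus early change of Notch2 was 0.36 in mouse 1805, and the next highest was 0.06, a gap of 0.628 of the whole range, just over the 95% limit of Dixon's test. Chance alone puts some of that many sets past it.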

How the results depend on the processing

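No Notch gene passed in limma in any of 657 values, which are the 54 member values under the main and every alternative setting; the smallest adjusted p was 0.0596, for Notch1 in late carcinoma against adenoma without mouse 1803. The number of all genes called in adenoma tumors, 25, became 42 with each array centred on its median, 13 with only genes above the 25th percentile and 2 without the replicate block. Leaving out 1 mouse gave 0 to 78 genes there (0 without 1755, 1803 or 1805, 2 without 3407, 3 without 3413, 78 without 2201), 0 to 2 over all tumors (2 without 3407), 0 to 1 in carcinoma tumors (1 without 1805), 0 to 67 between pathologies early (67 without 1803, 3 without 2201) and 0 to 395 late (395 without 1803). The cause was not tested. Leaving out the block, or using trended and robust variances, changes only the estimated spread in this balanced design. The direction of all 54 member values therefore stayed as it was by construction.

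Centring on the median turned Notch1 in adenoma tumors (-0.024) and, in late carcinoma against adenoma, Notch3 (-0.022) and Nrarp (-0.019); quantile normalisation turned the last 2 (-0.027 and -0.025). A term for the sample number range turned Notch3 (-0.15), Dll1 (-0.24), Jag1 (-0.18) and Hey1 (-0.16) over all tumors, by construction resting on 2 mice. Leaving out 1 mouse turned 28 member values. Over all tumors Notch1 ranged from -0.021 to 0.083, Notch2 from -0.017 to 0.079 and Hey1 from -0.11 to 0.14. In adenoma tumors Notch1 ranged from -0.14 to 0.12, Jag2 from -0.27 to 0.020, Hes1 from -0.028 to 0.16 and Hey1 from -0.23 to 0.37. In carcinoma tumors Notch2 ranged from -0.0755 to 0.014, Notch3 from -0.18 to 0.21, Dll1 from -0.24 to 0.58, Jag1 from -0.24 to 0.076, Hey1 from -0.16 to 0.12 and Nrarp from -0.14 to 0.32. The difference of the changes ranged from -0.054 to 0.20 for Notch1, -0.68 to 0.15 for Dll1, -0.043 to 0.16 for Hes1 and -0.40 to 0.21 for Hey1. Late carcinoma against adenoma ranged from -0.024 to 0.23 for Notch2, -0.14 to 0.12 for Notch3, -0.36 to 0.25 for Dll1, -0.054 to 0.29 for Jag2 and -0.073 to 0.18 for Nrarp. Other values kept their sign but moved by over 1.5 times, among them Notch3 (0.17 without 1755, 0.18 without 1803, 0.44 without 3413) and Jag1 (0.14 without 1805, 0.48 without 3413) over all tumors, Jag2 in carcinoma tumors (-0.17 without 2201), Notch2 early (0.17 without 1755), Hes1 early (0.055 without 1805) and Hey1 late (0.20 without 1805, 0.78 without 1803) between pathologies.

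With 3 mice a pathology the intervals are wide. Averaging probe sets of a gene was not run, since each member has 1. Storage in RLT or RNALater is not given per biopsy.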

Other observations

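Over the 12 arrays, which share 6 mice and 2 time points and are not independent, the genes with the pattern most like each Notch gene were as follows, as a description by Pearson correlation over the arrays. For Hes1 it was Lgr6, an R-spondin receptor, at 0.98, above Tsacc at 0.93 and Cep41 at 0.90. For Notch1 these were Bud13 (0.98), Scaf4 (0.97) and Zbtb39 (0.97). For Notch3 they were Plekhf1 (0.96), Ephx3 (0.94) and C1qtnf1 (0.93), and for Jag2 Uchl5 (0.96), Ipo5 (0.94) and Eif3b (0.94). Notch2 was closest to Mark4 (0.93), Clasp1 (0.93) and Map4k4 (0.92), and Nrarp to Gramd3 (0.92), Fstl4 (0.91) and Prps1 (0.88). Hey1 was closest to Impact (0.90), Zc3h12c (0.89) and Ccnt2 (0.89), Jag1 to Ppp2r3a (0.90), Dact3 (0.90) and Zdhhc9 (0.90), and Dll1 to Plcl1 (0.88), Efcc1 (0.85) and Rtl8c (0.84). No Notch gene was among these 3 nearest genes of another.

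Among the pairs of the 9 genes the correlation ran from -0.37 (Dll1 with Jag2) to 0.64 (Notch1 with Hey1). Jag2 and Hes1 were at 0.63 and Notch3 and Nrarp at 0.61, while Jag1 and Hes1 were at 0.08 and Notch2 and Hes1 at 0.01.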
